A study of Schizosaccharomyces pombe with 7 samples.

Results

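The clr3Δ strain of fission yeast (Schizosaccharomyces pombe) was compared with wild type for where newly made histone H3 entered chromatin, on 4 of the 7 arrays of the series: the single clr3Δ array and the 3 wild-type arrays. The clr3Δ array and wild-type array 3 were hybridised on the same slide, so each difference below is clr3Δ minus wild type 3, and wild-type arrays 1 and 2, each from another slide, give the spread. With 1 clr3Δ array every difference is a description and carries no test. The series also holds 2 fft3Δ arrays and 1 array of the double mutant fft3Δ clr3Δ, which are used only for values side by side.

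All strains went through the same treatment. Mid-log cells growing in minimal medium with 8% glucose at 30 °C received 15 mM hydroxyurea (HU), a drug that holds cells in S phase, for 4 h. They were then moved to 4% sucrose with the same HU concentration for 2 h, which induced FLAG-tagged H3, and were fixed with 1% formaldehyde. DNA sheared to 500 to 1000 bp was immunoprecipitated with an anti-FLAG antibody and labelled with Cy5 (red), while DNA of the whole-cell extract, called input, was labelled with Cy3 (green). The clr3Δ cells carry the clr3_delta allele and the control cells are labelled wild-type. The labels do not say whether the arrays came from separate cultures, and the spread between wild-type arrays 2 and 3 may therefore be technical. Wild type 1 differed from both in which DNA its input held at some mating-type and contig windows, described below. Its DNA was thus not the same as theirs there. The clr3 gene is not covered by the probes used here, so the deletion itself was not checked.

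Clr3 is the histone deacetylase of SHREC, a complex that spreads over heterochromatin in fission yeast and silences transcription there. Heterochromatin in this yeast is built with H3K9 methylation at the outer repeats of the centromeres, at the subtelomeres, at the silent mating-type region and at the ribosomal DNA. Between the outer repeats of each centromere lies a central core, whose nucleosomes hold the H3 variant Cnp1 in place of H3, and tRNA genes border the core and the repeats. Tagged H3 made during an S-phase arrest is used as a reading of nucleosome turnover, the exchange of old histones for new ones.

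The value of a probe is log2 of the red over the green processed signal, centred on the median of its array, so that 0 is the level of the typical probe and a difference of 1 is a doubling of the ratio. The arrays hold 43993 probes of 60 bases, 1 every 50 bases. Over the probes the clr3Δ array had a correlation of 0.757 with wild type 3, against 0.862 for wild type 1 and 0.805 for wild type 2; these points share probes and repeats. At least 99.4% of probes were well above background in both channels and none was saturated. A gene or window of 1 kb was called higher or lower when the difference was at least 0.5 in size and the clr3Δ value lay outside the range of the 3 wild-type arrays. Each array averages a culture, so a small change in all cells and a larger change in some of them cannot be told apart.

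Some DNA was missing from the input in part of the strains, which has to be known before the mating-type results. In 7 windows the input lay below −3 on some arrays and near the rest of the genome on others: 1 window of the mat3 interval and 6 of the contig that the files name chr4. In II:2131211-2132220 the input was −7.05 on the clr3Δ array, against −6.99, −0.99 and −7.09 on wild-type arrays 3, 1 and 2. In the contig window that starts 26 kb in, it was −0.80 on the clr3Δ array, against −0.40, −8.40 and −0.38 on wild-type arrays 3, 1 and 2. The clr3Δ and wild-type 3 arrays matched each other in all 7 windows, and of the wild-type arrays only wild type 1 stood apart from both.

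Most of the regions that differed are repeated DNA, and the sequences below show how far a probe can be read as 1 place. They are from RefSeq's assembly ASM294v3, on which the probes were placed here by base composition. Capitals mark runs of at least 20 bases that both members of a pair share. The first pair is a stretch of SPNCRNA.5270, the outer-repeat transcript with the largest difference (II:1635140-1635259, plus strand), and its copy in the outer repeats on the other side of the core (II:1612623-1612742, minus strand).
SPNCRNA.5270: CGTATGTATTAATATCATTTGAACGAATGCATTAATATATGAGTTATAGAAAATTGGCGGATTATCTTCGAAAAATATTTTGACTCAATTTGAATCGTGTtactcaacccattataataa
left outer repeats: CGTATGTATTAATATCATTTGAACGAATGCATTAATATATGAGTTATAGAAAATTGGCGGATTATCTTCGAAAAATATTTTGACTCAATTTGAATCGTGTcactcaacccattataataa
The copies are the same at 119 of 120 bases, and the first 100 bases of this gene occur 6 times in the assembly, 2 times on each of chromosomes I, II and III. A value of these probes is therefore a mean over the centromeres.

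The second pair is a stretch of tlh2, the subtelomeric gene of a RecQ-type helicase (II:4528970-4529070, plus strand), and the place in the outer repeats it resembles (II:1610884-1610984, plus strand).
tlh2: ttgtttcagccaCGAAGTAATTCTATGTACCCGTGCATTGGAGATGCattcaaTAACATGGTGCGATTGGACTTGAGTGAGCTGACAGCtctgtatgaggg
left outer repeats: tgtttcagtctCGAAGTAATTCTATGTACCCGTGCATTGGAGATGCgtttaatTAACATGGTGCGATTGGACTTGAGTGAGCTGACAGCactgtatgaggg
Here 71 of 101 bases lie in shared runs, of which the longest has 36 bases, shorter than a probe. The third pair shows where the inverted repeats around mat3 end: a stretch of SPNCRNA.390 (II:2134991-2135110, plus strand) and its counterpart to the left of mat3 (II:2131219-2131338, minus strand).
SPNCRNA.390: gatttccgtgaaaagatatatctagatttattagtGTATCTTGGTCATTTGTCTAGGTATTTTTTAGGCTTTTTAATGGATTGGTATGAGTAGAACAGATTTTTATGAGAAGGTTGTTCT
left of mat3: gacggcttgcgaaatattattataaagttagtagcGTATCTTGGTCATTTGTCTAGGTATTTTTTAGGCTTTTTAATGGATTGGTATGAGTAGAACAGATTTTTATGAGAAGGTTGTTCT
The run of 85 shared bases is the end of the repeat, and the lower-case bases beside it belong to 1 side each. The last sequence is the start of SPNCRNA.6652 (II:4532531-4532630, plus strand of the assembly, while the gene is on the minus strand inside tlh2). It occurs 1 time in the assembly, and none of the 6 probes of the gene was repeated.
SPNCRNA.6652: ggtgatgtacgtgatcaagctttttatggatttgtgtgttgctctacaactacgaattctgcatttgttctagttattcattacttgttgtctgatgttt

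New H3 was higher on the clr3Δ array at the known heterochromatin regions that the arrays cover, and nearly level along the chromosome arm. Of 2220 genes with at least 2 probes, 83 (3.74%) were called higher and 2 (0.0901%) lower. Of 2198 windows, 97 (4.41%) were called higher and 3 (0.136%) lower. Over single-copy probes alone 17 genes and 10 windows were higher, and the count of genes lower ranged from 0 to 23 over the settings tried. The start of the contig described below appears to repeat a stretch of chromosome II, so windows there may be counted 2 times, and the lower windows of the contig and of II:2117211-2118220 may lie partly in the same place. Windows farther into the contig may also repeat the mat3 interval. The one that starts 38 kb in was at 0.27 on the clr3Δ array, against −1.22, −0.45 and −1.44 on wild-type arrays 3, 1 and 2. II:2135211-2136220 in the mat3 interval was at 0.31, against −1.26, −0.48 and −1.50. Whether these are the same DNA was not tested. Outer repeats held 34 of the higher genes, the right subtelomere of chromosome II 27, the ribosomal DNA end of chromosome III 11 and the interval around mat3 6. The arm held 4 of its 2068 genes, and the first stretch of chromosome III beyond the ribosomal DNA held 1 of 26. By kind of gene, the higher ones were 69 of 1261 long noncoding RNA genes, 8 of 894 protein-coding genes, 3 of 7 pseudogenes and 3 of 14 rRNA genes. The genes share probes with their neighbours in 1953 of 2220 cases, so they are not separate observations.

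By size alone, 88 genes were at least 0.5 higher and 8 at least 0.5 lower between the clr3Δ and wild-type 3 arrays. The same count between wild-type arrays was 2 and 9 genes for array 3 minus array 1, 79 and 64 for array 3 minus array 2, and 69 and 106 for array 2 minus array 1. Wild-type array 2 thus differed from the other two in more genes in all than the clr3Δ array did from wild type 3, split over both directions, whereas the clr3Δ differences lay almost all on the higher side.

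**Figure D1:**
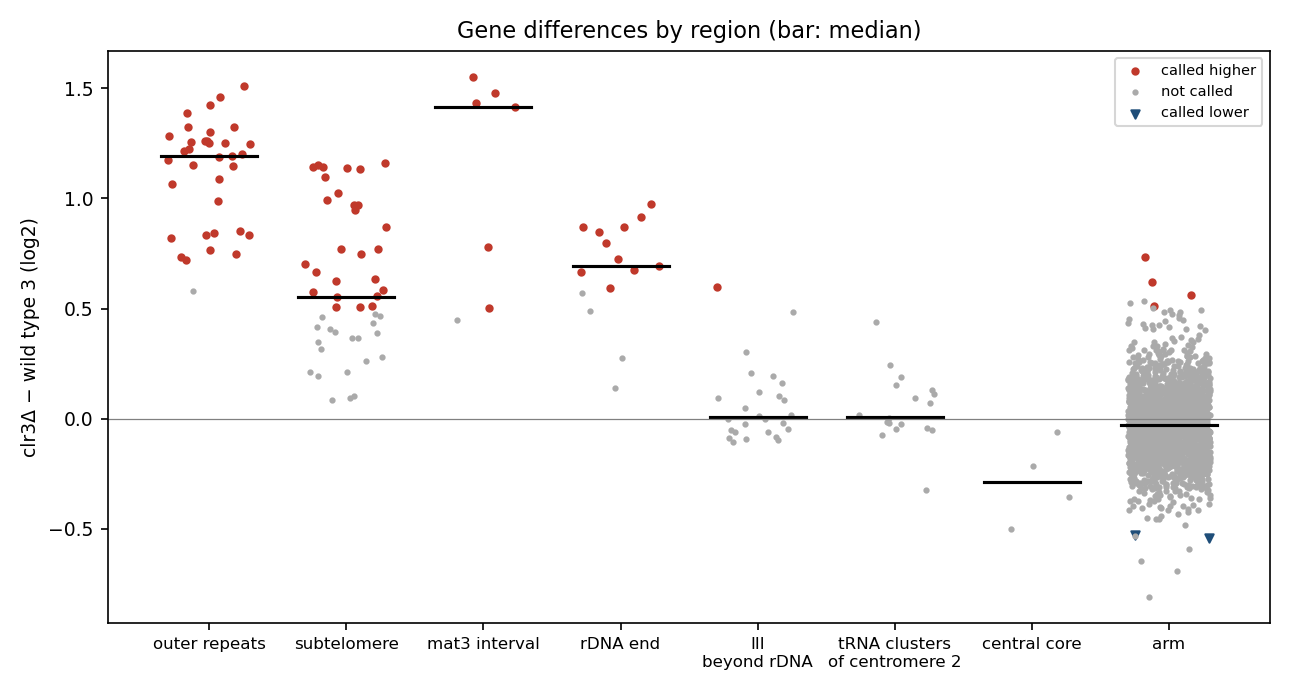
Difference in new H3 per gene, clr3Δ minus wild type 3 (log2, y axis), by region (x axis); each point is a gene, the bar is the median of the region, and the colours give the calls. Medians were 1.19 over 35 outer-repeat genes, 0.55 over 47 subtelomere genes, 1.42 over 7 genes of the mat3 interval and 0.69 over 15 genes of the ribosomal DNA end, and −0.03 over 2068 arm genes.

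At the outer repeats of centromere 2 (II:1602418-1618292 and II:1630123-1643848), new H3 was at −0.19 on the clr3Δ array, against −1.31, −1.43 and −1.47 on wild-type arrays 3, 1 and 2. The wild-type arrays differed by an SD of 0.08 (n = 3), and the difference of 1.12 is a ratio 2.17-fold higher in clr3Δ. All of the 584 probes measured on both arrays (100%) were higher. The left side differed by 1.12 and the right side by 1.11, with 95.9% and 92.4% of their probes repeated in the assembly, so most probes cannot tell the sides apart. The 34 probes found once in the assembly were at −0.54 on the clr3Δ array, against −1.43, −1.49 and −1.78 on the wild-type arrays, a difference of 0.90. By side, the single-copy probes differed by 1.22 on the left (13 probes) and by 0.70 on the right (21 probes). Input differed by −0.15 and the ChIP signal by 0.96.

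The outer repeats hold the dg and dh elements, whose transcripts feed the RNA interference pathway. Of 35 genes annotated there, 34 were called higher, with differences of 0.58 to 1.51 over all 35. SPNCRNA.5270, whose sequence is shown above (II:1634960-1635318), had the largest: 0.28 on the clr3Δ array, against −1.23, −1.27 and −1.32 on wild-type arrays 3, 1 and 2. Its neighbours SPNCRNA.5271 and SPNCRNA.5272 were higher by 1.46 and 1.42. On the left side SPNCRNA.362 was at 0.26 on the clr3Δ array, against −1.13, −1.24 and −0.99 on the wild-type arrays, and SPNCRNA.5257, which overlaps it, differed by 1.30. The remaining outer-repeat genes among the 20 largest differences (SPNCRNA.5274, SPNCRNA.371, SPNCRNA.5275, SPNCRNA.372, SPNCRNA.5256, SPNCRNA.5254, SPNCRNA.5277, SPNCRNA.5273, SPNCRNA.5259, SPNCRNA.5255 and SPNCRNA.5276) were higher by 1.22 to 1.33. The gene not called was SPNCRNA.363, with 2 probes: −0.62 on the clr3Δ array, against −1.20, −0.40 and −1.72 on the wild-type arrays, where the groups overlap.

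The difference changed along the repeats. In the 5 windows of the outer repeats within 8 kb of the centre of the core it was 0.71 to 0.97. In the 16 windows from 11 to 19 kb it was 1.12 to 1.43, and the clr3Δ level there reached −0.17 to 0.31, against −1.33 to −1.08 on wild type 3. In the 4 windows beyond 19 kb, towards the border tRNAs, it was 0.40 to 1.32, and 3 of them were called. These distances were chosen after the profile was seen.

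**Figure D2:**
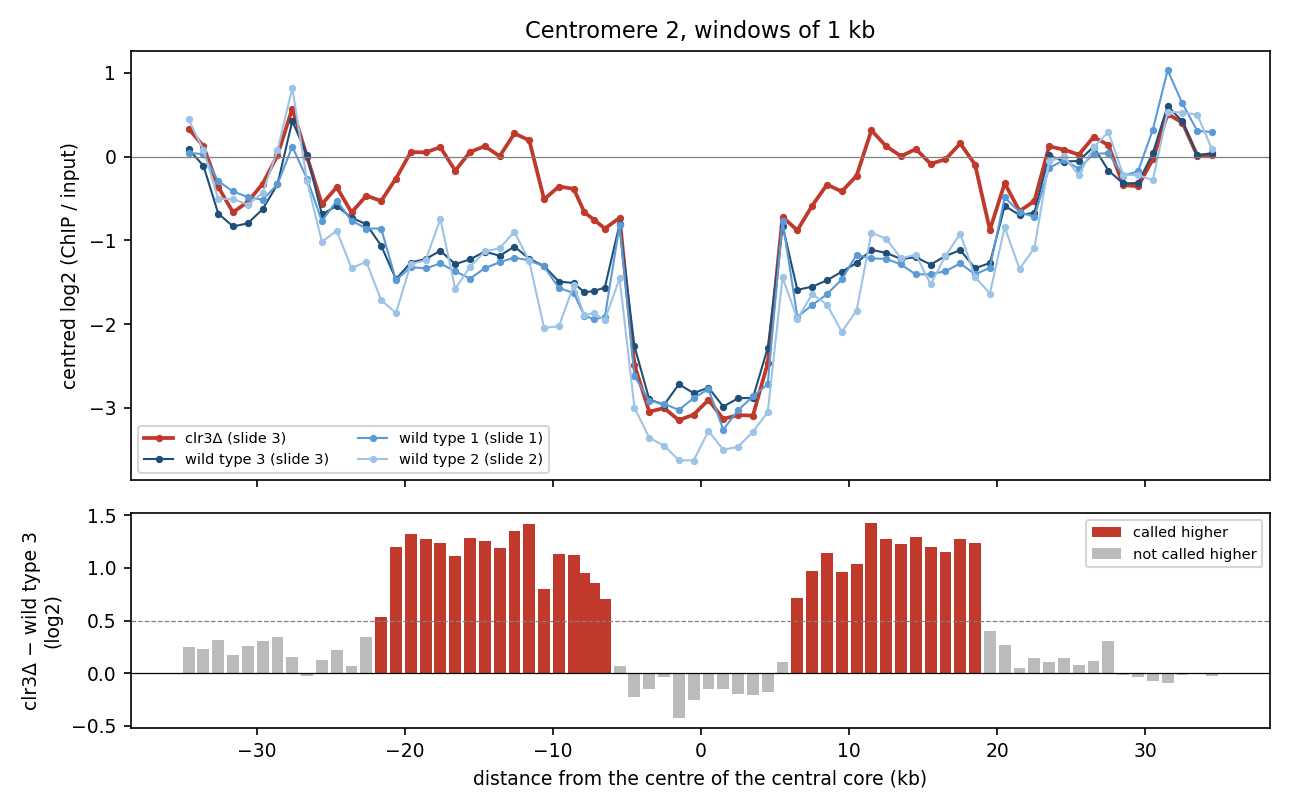
New H3 across centromere 2 in windows of 1 kb, by distance from the centre of the central core (x axis, kb). The upper panel gives the centred log2 ratio on the clr3Δ array and the 3 wild-type arrays, the lower the difference clr3Δ minus wild type 3 (log2; the dashed line is at 0.5). The red line leaves the wild-type lines over the outer repeats on both sides, where 30 of 31 windows were called, and stays with them over the core and the tRNA clusters.

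In the central core (II:1619257-1629158), where new H3 is low in wild type, it was as low without Clr3: −2.97 on the clr3Δ array, against −2.77, −2.93 and −3.39 on wild-type arrays 3, 1 and 2. The clr3Δ value lay within the wild-type range, and its difference of −0.20 from wild type 3 became 0.19 when the mean of wild-type arrays 1 and 2 was taken instead. None of the 10 windows and none of the 4 core genes was called, with gene differences from −0.06 for SPNCRNA.370 to −0.50 for SPNCRNA.369. The inner tRNA clusters on the edges of the core were at −0.68 on the clr3Δ array, against −0.74, −0.70 and −1.35 on the wild-type arrays. The left border cluster was at −0.50 on the clr3Δ array, against −0.69, −0.70 and −1.10 on the wild-type arrays, and the right border cluster at −0.53, against −0.68, −0.65 and −1.10. All of the 3 were just above the highest wild-type array, by 0.02 to 0.18, which is under the size that counts as called. Most of their probes are repeated. Over the 9 single-copy probes of the right border cluster the clr3Δ array was at −0.55, against −0.39, −0.48 and −0.86 on the wild-type arrays, inside their range with a difference of −0.17.

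None of the 18 tRNA genes of centromere 2 was called, and their differences ran from −0.32 for SPBTRNAMET.05 to 0.44 for SPBTRNAARG.06. Outside the border tRNAs, the first 10 kb on the left differed by 0.21 and the first 10 kb on the right by 0.05. The left flank was at −0.06 on the clr3Δ array, against −0.27, −0.20 and −0.11 on the wild-type arrays. Its difference to the nearest wild-type array was 0.05, less than the wild-type SD of 0.08.

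In the last 50 kb of the right end of chromosome II (II:4489805-4539804), new H3 was at −0.04 on the clr3Δ array, against −0.61, −0.55 and −0.74 on wild-type arrays 3, 1 and 2. The difference of 0.57 (1.48-fold) exceeded the wild-type SD of 0.10 (n = 3), and input differed by 0.06. Of the probes, 81.2% were repeated in the assembly; the 188 found once were at −0.22 on the clr3Δ array, against −0.62, −0.52 and −0.77 on the wild-type arrays, a difference of 0.40. By steps of 10 kb from the chromosome end the difference was 0.63, 0.96, 0.64, 0.34 and 0.28. The clr3Δ value was above all wild-type arrays in each of these steps.

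**Figure D3:**
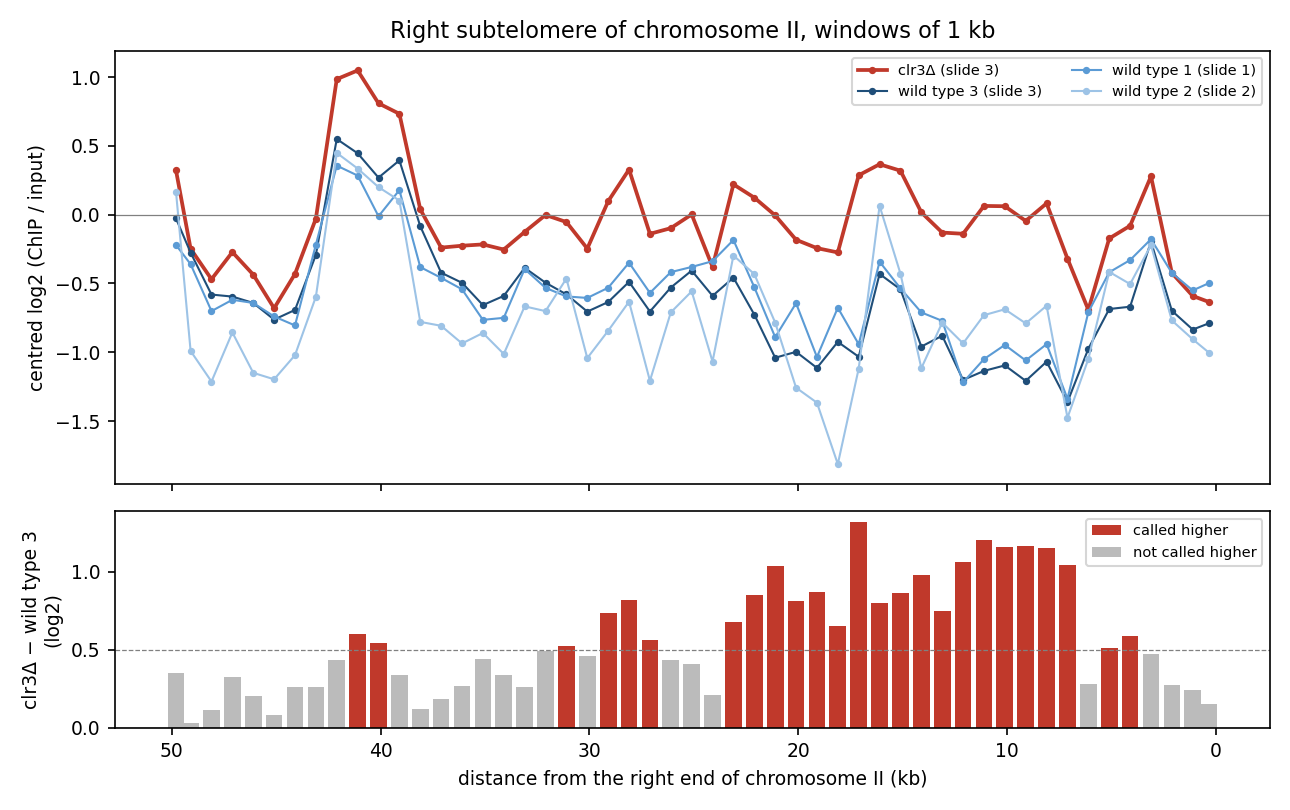
New H3 in the last 50 kb of chromosome II in windows of 1 kb, by distance from the right end (x axis, kb, end on the right). The upper panel gives the centred log2 ratio on the clr3Δ array and the 3 wild-type arrays, the lower the difference clr3Δ minus wild type 3 (log2; the dashed line is at 0.5). Between 7 and 24 kb all 17 windows were called higher, by 0.65 to 1.32; in the outer 3 kb and beyond 43 kb none was.

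The subtelomeric difference was not uniform. In the outer 3 kb it was 0.16 to 0.27 and no window was called. Between 7 and 24 kb, 17 of 17 windows were called, with differences of 0.65 to 1.32, and between 24 and 39 kb 4 of 15 were. The 4 windows from 39 to 43 kb were at 0.73 to 1.05 on the clr3Δ array, against 0.27 to 0.55, −0.01 to 0.36 and 0.10 to 0.45 on wild-type arrays 3, 1 and 2, and 2 of them were called. Beyond 43 kb none of 8 windows was called.

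Of 47 subtelomeric genes, 27 were called higher, and the differences ran from 0.08 for SPNCRNA.6636 to 1.16 for SPNCRNA.6650. The gene tlh2 (II:4526885-4532899) was at −0.04 on the clr3Δ array, against −1.17, −1.09 and −0.85 on wild-type arrays 3, 1 and 2, a difference of 1.14 over 120 probes, of which 111 are repeated. SPNCRNA.6652 on the other strand of tlh2, the single-copy stretch shown above, was at −0.22 on the clr3Δ array, against −1.35, −1.31 and −1.41 on the wild-type arrays. Its difference of 1.14 was the same as that of the whole gene. Labelled DNA has no strand on these arrays, so a gene and its antisense partner share 1 value.

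Other transcripts within or beside tlh2 were also higher, by 1.15 for SPNCRNA.6645 and SPNCRNA.6649, 1.14 for SPNCRNA.6651, 1.10 for SPNCRNA.6647, 1.03 for SPNCRNA.6648 and 0.77 for SPNCRNA.6646. Farther in, SPNCRNA.6643 and SPNCRNA.6641 were both higher by 0.97, SPNCRNA.6642 by 0.95, SPNCRNA.6640 by 0.87, SPNCRNA.6644 by 0.75, SPNCRNA.6639 by 0.63, SPNCRNA.6635 by 0.55 and SPNCRNA.6638 by 0.51. The called pseudogenes were SPBCPT2R1.06C, higher by 0.99, SPBCPT2R1.07C by 0.77 and SPBCPT2R1.10 by 0.63. The called protein-coding genes other than tlh2 were SPBCPT2R1.03, higher by 0.70, SPBPB2B2.16C by 0.58 and SPBCPT2R1.02 by 0.51. On the telomere side of tlh2, where the probes of the called genes are all single-copy, SPNCRNA.6656 was higher by 0.67, SPNCRNA.6658 by 0.58, SPNCRNA.6654 by 0.56 and SPNCRNA.6655 by 0.51.

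The interval around mat3, from the end of rpp202 to the start of emc3 (II:2128468-2138318), was at 0.01 on the clr3Δ array, against −0.77, −0.28 and −0.95 on wild-type arrays 3, 1 and 2. Cells of the assembly's strain keep a silent copy of M mating-type information here, between inverted repeats that act as boundaries of heterochromatin. The clr3Δ value was above all of the wild-type arrays, but these differed from each other by an SD of 0.34 (n = 3). The difference was 0.78 to wild type 3 and 0.29 to wild type 1, the highest of them. Over the 91 single-copy probes it was 0.36, with −0.26 on the clr3Δ array, against −0.62, −0.30 and −0.84 on the wild-type arrays. Input was lower on the clr3Δ array by 0.38, so the difference in ChIP signal was 0.39. The part of the input in the difference of the ratio was not tested.

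Within the interval the largest differences lay in the inverted repeats on both sides of the mat3 genes, where the probes are repeated and wild-type arrays 3 and 2 were low. SPNCRNA.5506 (II:2130098-2130684) was at 0.35 on the clr3Δ array, against −1.21, −0.48 and −1.42 on wild-type arrays 3, 1 and 2, the largest difference of any gene (1.55). SPNCRNA.390 (II:2134981-2136530), whose repeat end is shown above, was at 0.18 on the clr3Δ array, against −1.30, −0.48 and −1.54 on the wild-type arrays. Both groups were apart in each case, and wild type 1 was the nearest to clr3Δ. SPNCRNA.5507 and SPNCRNA.389, in the same repeats, were higher by 1.43 and 1.42.

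The M genes themselves differed less. mat3-Mi, a meiotic inducer of M cells, was at 0.56 on the clr3Δ array, against −0.22, 0.28 and 0.06 on wild-type arrays 3, 1 and 2. mat3-Mc, which encodes the HMG-box regulator of M-specific genes, differed by 0.45 and was not called. Their copies at the expressed locus, mat1-Mi and mat1-Mc, differed by 0.62 and 0.43; the probes of all 4 genes are repeated, so the 2 loci cannot be told apart by them. The stretch around mat1 as a whole (II:2113897-2117167) was at 0.76 on the clr3Δ array, against 0.68, 0.84 and 1.00 on the wild-type arrays, inside their range. Over its 39 single-copy probes it was at 0.88 on the clr3Δ array, against 1.07, 1.14 and 1.49 on the wild-type arrays, a difference of −0.20. prl103, which overlaps mat1-Mi, was higher by 0.56 in the ratio, with 0.18 in the ChIP signal and −0.37 in input, and mat1-Mi had 0.29 and −0.32. SPNCRNA.5505, at the left edge of the mat3 interval, was higher by 0.50 in the ratio, with 0.09 in the ChIP signal and −0.40 in input.

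Of 8 genes beside the mat3 interval, 1 was called. The 4 on the left were above all wild-type arrays and the 4 on the right (emc3, mtd1, srp40 and rpl401) within their range, with differences of 0.15 to 0.24 on the right. On the left, rpp202, which encodes an acidic ribosomal protein, was at 0.50 on the clr3Δ array, against −0.23, −0.27 and 0.09 on wild-type arrays 3, 1 and 2, and its ChIP signal differed by 0.30. SPBC23G7.14 next to it differed by 0.48 in the ratio, by 0.02 in the ChIP signal and by −0.45 in input. At the other 6 genes the ChIP signal differed by −0.25 to −0.10, so their positive ratio differences came with a lower input and not with a higher ChIP signal. Of 1990 arm windows, 14 had an input at least 0.3 lower on the clr3Δ array than on wild type 3, and all of these lay in the 9 windows to the left (II:2119211-2128220) and the 8 to the right (II:2138211-2146220) of the interval. Mean input on the left was −0.07 on the clr3Δ array, against 0.32, 0.02 and 0.26 on wild-type arrays 3, 1 and 2. On the right it was −0.41 on the clr3Δ array, against −0.09, −0.44 and −0.13 on the wild-type arrays, so wild type 1 was equally low there.

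The contig named chr4 in the files (824 probes, 41 windows) is not annotated in them. Its first 20 kb followed the base composition of II:2109755-2129754, a stretch that runs from left of mat1 to just left of SPNCRNA.389, and the rest is given in the contig's own coordinates. In its first 18 kb none of 18 windows was called higher, and the window that starts 7 kb in was called lower, at 0.25 on the clr3Δ array, against 0.78, 0.91 and 0.26 on wild-type arrays 3, 1 and 2. From the window that starts 18 kb in to the one that starts 39 kb in, 19 of 22 were called higher, with differences of 0.49 to 2.21. From 20 kb to its end, the contig was at 0.25 on the clr3Δ array, against −1.04, −0.21 and −1.19 on the wild-type arrays, a difference of 1.29 (2.45-fold) with a wild-type SD of 0.53 (n = 3). The mean of wild type 1 and this SD include the windows described next, where input DNA was missing on that array. Its ratio there was 0.15 to 1.21, formed from weak signals, so neither value is a plain level of new H3.

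The windows of the contig that start 23 to 28 kb in had the largest differences on the arrays, 1.73 to 2.21. In 4 of these 6 windows the DNA is missing from the input of wild type 1, and 2 of these 4 were not called because the ratio of that array, formed there from weak signals, was above that of clr3Δ. The window that starts 26 kb in, for example, was at 0.65 on the clr3Δ array, against −1.35 and −1.57 on wild-type arrays 3 and 2, and 1.21 on wild type 1. In the 4 windows that start 29 to 32 kb in, input was 2.40 to 2.75 above the array median on the clr3Δ array. New H3 there was −0.02 to 0.31 on the clr3Δ array, against −1.24 to −1.13, −1.35 to −0.54 and −1.24 to −0.92 on wild-type arrays 3, 1 and 2. Copies of the contig's probes were not counted, so whether these windows read DNA repeated elsewhere was not tested. Input from 20 kb to the end was lower on the clr3Δ array than on wild type 3 by 0.37, whose part in the ratio was not tested. Without the windows whose input was missing on the clr3Δ and wild-type 3 arrays, the difference was 1.36 for the contig from 20 kb on and 0.90 for the mat3 interval. The 4 windows missing from the input of wild type 1 were kept in these values.

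**Figure D4:**
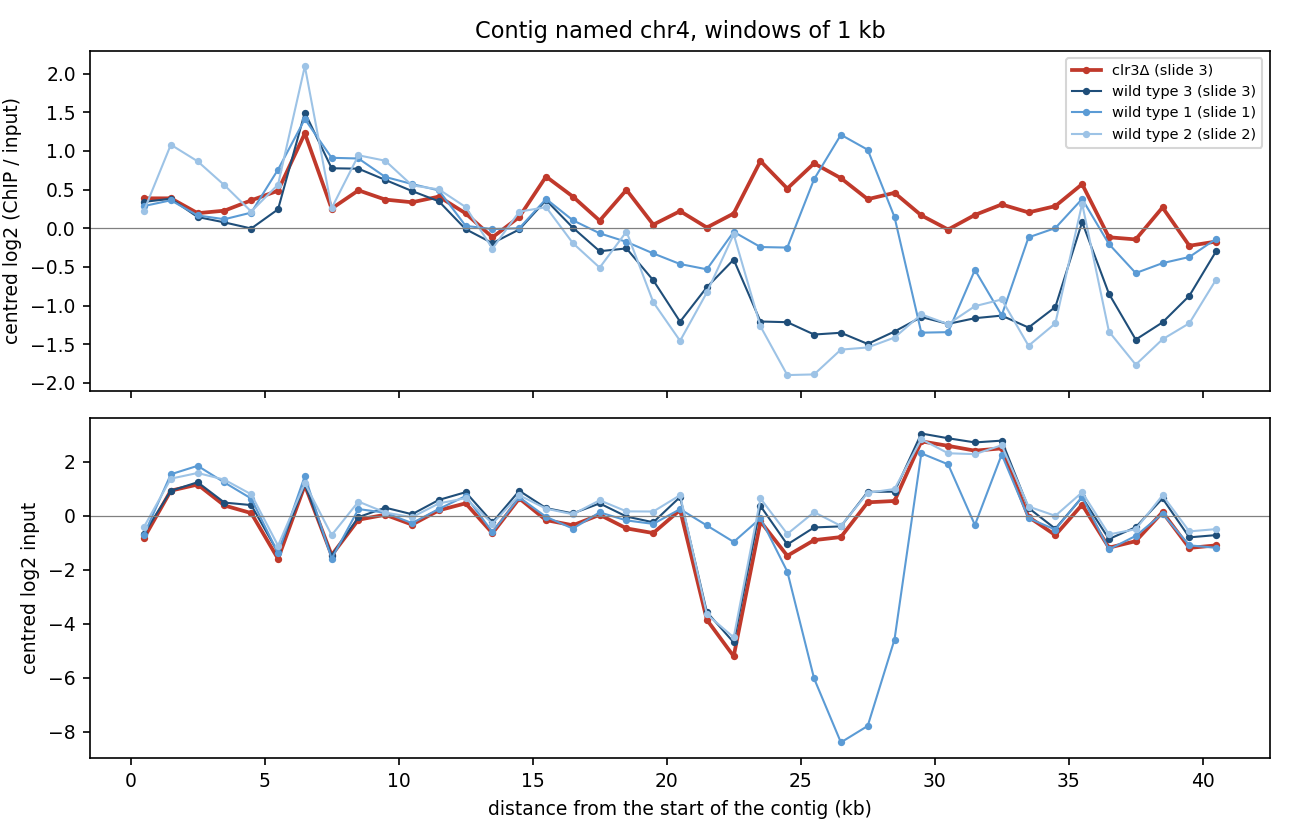
New H3 (upper panel, centred log2 ratio) and input (lower panel, centred log2 signal) along the contig named chr4 in windows of 1 kb, by distance from its start (x axis, kb), on the clr3Δ array and the 3 wild-type arrays. From the window that starts 18 kb in to the one that starts 39 kb in, the clr3Δ line runs between −0.23 and 0.87 and lies above wild-type lines 3 and 2, which reach down to −1.50 and −1.90; the input of wild type 1 drops to −8.40 in the window that starts 26 kb in.

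At the ribosomal DNA end of chromosome III (III:1-23130), new H3 was at −0.02 on the clr3Δ array, against −0.64, −0.66 and −0.55 on wild-type arrays 3, 1 and 2. The difference of 0.62 (1.53-fold) was above the wild-type SD of 0.06 (n = 3) of the region mean. Inside the region the wild-type arrays differed more, with a median SD of 0.21 over the 23 windows and 0.34 over the 15 genes. The clr3Δ value was above all wild-type arrays in 18 of the 23 windows. All of the probes are repeated. Input was 1.06 on the clr3Δ array, against −0.17, 1.12 and 0.84 on the wild-type arrays, so wild type 3 alone was low. From wild type 3, input differed by 1.23 and the ChIP signal by 1.84, and the part of the input in the ratio was not tested. The ratio of wild type 3 lay between those of the other two wild-type arrays. Of the 23 windows, 12 were called higher, and 11 of 15 genes.

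SPRRNA.47 was at −0.13 on the clr3Δ array, against −0.82, −0.90 and −0.25 on wild-type arrays 3, 1 and 2, and SPRRNA.48 and SPRRNA.42 were higher by 0.67 and 0.59. Wild type 2 was the nearest to clr3Δ at these genes, and at SPRRNA.43, with −0.42 on the clr3Δ array, against −0.99, −0.99 and −0.40 on the wild-type arrays, the groups overlapped. Among the transcripts of the spacers, SPNCRNA.6667 was at 0.54 on the clr3Δ array, against −0.43, −0.31 and −0.44 on the wild-type arrays. SPNCRNA.6674 was higher by 0.92, SPNCRNA.6666 and SPNCRNA.6672 by 0.87, SPNCRNA.6665 by 0.85, SPNCRNA.6673 by 0.80, SPNCRNA.6668 by 0.73 and SPNCRNA.6675 by 0.67.

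Beyond the ribosomal DNA (III:23131-50000), new H3 was at 0.03 on the clr3Δ array, against −0.05, −0.08 and −0.24 on wild-type arrays 3, 1 and 2. Over its 349 single-copy probes it was at −0.04 on the clr3Δ array, against −0.02, −0.02 and −0.20 on the wild-type arrays, inside their range. The called gene was SPNCRNA.1095, whose 10 probes are all repeated, at 0.28 on the clr3Δ array, against −0.32, −0.44 and −0.52 on the wild-type arrays. Of the 7 windows from 23 to 30 kb, 2 were called, and of the 20 from 30 to 50 kb none. The placing of this end of chromosome III on the assembly was weak, and gene values there depend on it.

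**Figure D5:**
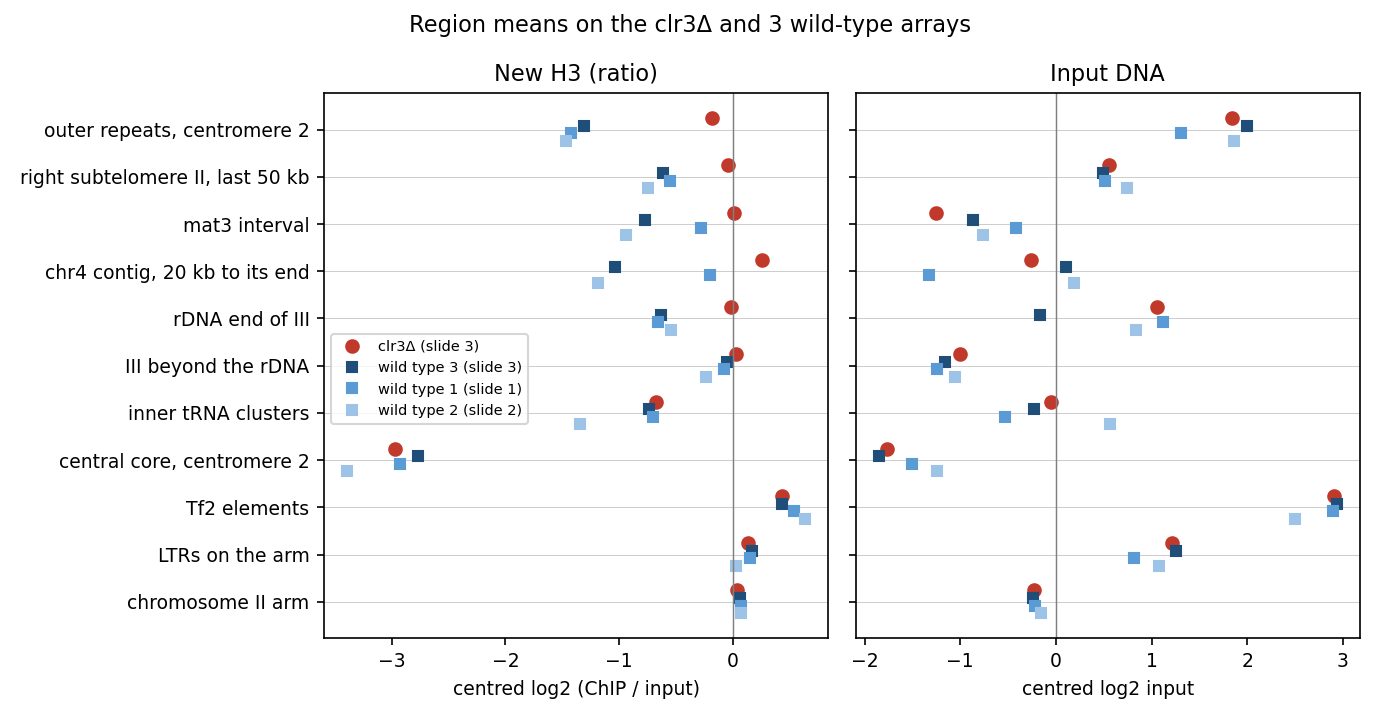
Region means on the clr3Δ array (red) and wild-type arrays 3, 1 and 2 (blue), for new H3 (left, centred log2 ratio) and input (right, centred log2 signal); each point is 1 array. Red lies right of all blue points in the left panel at the outer repeats, the subtelomere, the mat3 interval, the contig and the ribosomal DNA end; in the right panel wild type 3 is the low array at the ribosomal DNA end and wild type 1 on the contig.

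Repeated DNA outside heterochromatin did not move in this way. The Tf2 retrotransposons Tf2-9 and Tf2-10 (98.1% of 160 probes repeated) were at 0.43 on the clr3Δ array, against 0.43, 0.53 and 0.63 on wild-type arrays 3, 1 and 2. The 20 solo LTRs on the arm differed by −0.04. Neither Tf2 gene was called.

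Along the arm of chromosome II (II:999111-3048020), the mean was 0.03 on the clr3Δ array, against 0.06, 0.07 and 0.07 on wild-type arrays 3, 1 and 2. When the 1990 arm windows were split into 10 classes by their level on wild-type arrays 1 and 2, the median difference was −0.05 to −0.0035 in every class. The class with the lowest wild-type level, −0.74 to −0.32, had a median difference of −0.05, so within these levels low new H3 did not go with a higher value in clr3Δ. The outer repeats were at −1.47 to −1.31 in wild type, below all of these classes, so the arm windows cannot speak for such levels. The arm windows called were 2 higher, by 0.52 and 0.55, and 2 lower, with differences of −0.51 and −0.58.

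Of the 4 arm genes called higher, rpp202, mat1-Mi and prl103 lie near the mating-type loci described above. The fourth was rtn1, which encodes a reticulon of the endoplasmic reticulum, at 0.29 on the clr3Δ array, against −0.22, 0.07 and 0.28 on wild-type arrays 3, 1 and 2, hardly above wild type 2. The 2 genes called lower were short noncoding RNA genes of the arm. SPNCRNA.5029 was at −0.56 on the clr3Δ array, against −0.03, −0.13 and −0.15 on the wild-type arrays. SPNCRNA.5092 was at −0.03 on the clr3Δ array, against 0.51, 0.81 and −0.02 on the wild-type arrays, hardly below wild type 2, and its input was higher by 0.50. SPNCRNA.5037, SPNCRNA.5135, SPNCRNA.5656 and SPNCRNA.5189 had larger negative differences, −0.59 to −0.81, but lay within the wild-type range and had an input 0.33 to 0.74 higher.

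Around the size that counts, the genes just inside were SPBCPT2R1.02 (0.51), SPNCRNA.6655 (0.51) and SPNCRNA.5505 (0.50), and those just outside SPNCRNA.5931, SPBTRNAARG.05 and SPRRNA.44 (all 0.49). The genes large enough but within the wild-type range were SPNCRNA.363, SPRRNA.43, hob1 (0.53), SPNCRNA.5104 (0.53) and lsd90 (0.50).

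Genes outside heterochromatin were described by lists of function, whose counts stand against 3.74% of all genes and 0.193% of arm genes called higher; at such shares a list of this length with 0 or 1 call is near the background. Of the silencing factors, only clr1, tas3 and abo2 are covered, and they differed by −0.03, −0.05 and −0.11. Clr1 is a zinc-finger subunit of SHREC and Tas3 a subunit of the RITS complex. The histone genes hht2 and hhf2, which encode H3 and H4, differed by 0.29 and 0.25, and pht1, which encodes H2A.Z, by −0.08. hht2 was at 1.60 on the clr3Δ array, against 1.31, 1.60 and 1.49 on wild-type arrays 3, 1 and 2, so its difference was inside the spread.

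Of the 25 ribosomal protein genes, 1 was called higher (rpp202), the median difference was 0.15, and 22 (88%) were above 0, against 45.3% of all genes. The lowest was rps2501 at −0.08. The clr3Δ value lay within the wild-type range in 18 of the 25, above it in 5 and below it in 2, and against the mean of the 3 wild-type arrays the median was 0.03. Wild type 3 was the low array here, with wild type 2 a median of 0.31 above it. Over the 25 tRNA genes no call was made, from −0.32 for SPBTRNAMET.05 to 0.49 for SPBTRNAARG.05. None of the 14 snoRNA and snRNA genes was called, from −0.30 for snoZ30 to 0.23 for snR92. None of the 15 meiotic genes was called, from −0.13 for mug57 to 0.31 for mug176. The stress genes ran from −0.11 for hsp16 to 0.12 for atf21 (0 of 4 called), and the genes of glycolysis and glucose response from −0.08 for eno101 to 0.33 for gal1 (0 of 4). The replication genes ran from 0.10 for mcm2 to 0.18 for yox1 (0 of 3), and the iron genes php4 and str1 differed by −0.02 and −0.06.

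Side by side, the other mutants give the following differences. At the outer repeats clr3Δ differed by 1.12 and the double mutant by 1.91, both from wild type 3, and fft3Δ by 0.35 and 0.08 from the wild-type arrays of slides 1 and 2. At the subtelomere the differences were 0.57 for clr3Δ, 0.93 for the double mutant, and 0.39 and 0.55 for fft3Δ. At the mat3 interval they were 0.78, 0.99, 0.35 and 0.46 in the same order. At the ribosomal DNA end they were 0.62, 0.68, 0.20 and −0.09, and on the contig from 20 kb on 1.29, 1.48, 0.27 and 0.46. At the central core clr3Δ differed by −0.20 and the double mutant by 0.55, with 0.06 and 0.19 for fft3Δ, and on chromosome III beyond the ribosomal DNA the values were 0.08, 0.50, 0.12 and 0.08. The clr3Δ and double-mutant differences share wild type 3, and neither mutant has a replicate. In II:2131211-2132220, input was −0.86 on the double mutant, against −6.99 on wild type 3. In the contig windows that start 21 and 22 kb in, it was −0.66 and −0.72, against −3.58 and −4.70. The double-mutant differences at the mat3 interval and contig therefore compare partly unlike DNA. Each fft3Δ array matched the wild-type array of its slide in the windows of missing input.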

How the data were processed

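New H3 was measured by ChIP on 2-colour Agilent arrays in HU-arrested cells. The deposited scanner files hold intensity values written by Agilent Feature Extraction (named by the submitters' processing notes), version 10.7.3.1 or 12.0.3.1 per the file headers. Wild type 1 had version 10.7.3.1, while clr3Δ and wild-type arrays 3 and 2 had 12.0.3.1. The part of the version in the wild-type spread was not tested. Processed signals were background-subtracted and dye-normalized by the authors' scanner software, per the file headers, so the overall amount of new H3 per array cannot be read. The deposited series table holds log2 of red over green processed signal, uncentred and unscaled, matching to within 4.9e-08. Its column medians were −0.029 for clr3Δ and −0.00139, −0.0365 and 0.0177 for wild-type arrays 3, 1 and 2. The deposited log10 ratio of the scanner files departed from log10 of that ratio at some probes. The largest gap was 0.126 on clr3Δ and 0.064, 0.355 and 0.126 on wild-type arrays 3, 1 and 2. Other deposited columns are flags of 0 or 1 for each spot, per the file headers. All arrays had ChIP DNA in red, with no dye swap, so a probe's dye bias touches a level but cancels in a difference.

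Spots flagged as nonuniform or population outliers were left out (323 on clr3Δ, 312, 4 and 156 on wild-type arrays 3, 1 and 2). Log2 ratios and log2 input were each centred on the array median and averaged over the probes of a region, a gene (at least 2 probes) or a 1-kb window of the file coordinates (at least 5 probes). The spread is the SD or range of the 3 wild-type arrays; no count model and no test was used. The sources used here do not give the build of the probe names. Probes were placed on ASM294v3 at the offset where input followed GC content best: 900 bases left of a step in centromere 2 (correlation 0.645, against 0.283 elsewhere), 1800 right of it (0.636 against 0.286) and at the right end (0.681 against 0.313), and 0 on chromosome III (0.452 against 0.392). A probe counts as repeated when its central 40 bases occur more than once. Calls and placing were tested on simulated data. The simulated mutant was wild type 3 with known shifts and independent noise at each probe. It therefore cannot show how often calls arise between separate arrays. Placing was simulated on chromosome II and not on the weakly placed end of chromosome III.

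The members, lists and call rule were chosen with earlier results of these data known. Genes named are the 20 largest called higher, all called lower, the 5 lowest, and each list's called members and extremes; the genes beside mat3 and at the edge of the call size, and the distances used to describe profiles, were chosen after their values were seen. The normexp alternative used median spot signals (limma 3.58.1, R 4.3.3), since the files used here hold no mean signals. Other alternatives changed the reference array, centring, scaling, probe filters, gene and window definitions, call size and placing.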

Additional observations from a re-analysis of the deposited data

How the results depend on the processing

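Of 180 values of the main results under other settings, 134 stayed within the wild-type SD or within 1.5 times the count, and no difference at the outer repeats, subtelomere, mat3 interval, contig or ribosomal DNA end changed sign. Settings without wild type 1 or 2 keep wild type 3 as the reference, so their region and input values were fixed at the main ones. They count among the 134. The deposited series table holds the same ratios, so its region values repeat those with flagged spots kept. The outer repeats (1.12) came to 1.21 against the mean of the 3 wild-type arrays, 0.91 after quantile normalization and 0.90 over single-copy probes. Single-copy probes gave 0.40 at the subtelomere and 0.36 at the mat3 interval; the ribosomal DNA end came to 0.48 with normexp and 0.52 after quantile normalization. Single-copy probes also gave 17 genes higher and 10 windows higher, since repeated probes and the unplaced contig drop out, and a size of 1 gave 36 and 48. Windows of 2 kb gave 51 higher. Genes lower (2) came to 0 against the mean of the wild-type arrays, with arm centring, with normexp, with the median over probes and at sizes of 0.75 and 1, to 1 with marked spots kept, to 4 with equal spread and to 23 after quantile normalization. Windows lower (3) came to 0 against the mean, with arm centring, with normexp, at sizes of 0.75 and 1 and in 2-kb windows, and to 17 after quantile normalization. The input of the ribosomal DNA end came to 0.46 against the mean of the wild-type arrays. By size alone, 29 windows had a higher input and 6 a lower one (1.32% and 0.273% of 2198); these counts came to 19 and 16 against the mean, 2 and 0 over single-copy probes and 13 and 1 in 2-kb windows, and the lower count to 0 at sizes of 0.75 and 1. The arm difference (−0.03) reversed to 0.0030 with arm centring and 0.043 with normexp. The cause of these shifts was not tested where no construction is named.

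Leaving out wild type 3, the reference, moved the outer repeats from 1.12 to 1.26, the subtelomere from 0.57 to 0.61 and the mat3 interval from 0.78 to 0.62. The contig moved from 1.29 to 0.95, the ribosomal DNA end from 0.62 to 0.58 and the core from −0.20 to 0.19. Leaving out wild type 1 or 2 cannot change these differences, because the reference stays. Leaving out each wild-type array in turn gave 84 to 86 genes and 99 to 106 windows higher, and 2 to 8 genes and 3 to 9 windows lower. Without wild type 1 or 2 the wild-type range can only narrow, so there these counts could only stay or rise. Windows with a higher input came to 15 to 29 and with a lower one to 6 to 69, counts that only leaving out wild type 3 can change. Wild type 3 decided the input of the ribosomal DNA end, at 0.079 to 1.23, and the lower input count, 69 without it; wild type 2 set the genes lower, 8 without it. Of 370 values of named genes, 347 kept their call, 15 lost it, 8 gained it and none reversed: the losses were SPNCRNA.5029 and SPNCRNA.5092, the gains SPNCRNA.5037, SPNCRNA.5135, SPNCRNA.5656 and SPNCRNA.5189. Leaving out the windows whose input was missing on the clr3Δ and wild-type 3 arrays was chosen after seeing the data. It gave 95 windows higher and 3 lower, with the windows missing only on other arrays kept. No value exists for the ribosomal DNA end and contig over single-copy probes, nor for the contig under shifted placing. No paired analysis was possible because clr3Δ has 1 array. The number of arrays limits the precision; at least 99.4% of probes were well above background.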
